A study of Mus musculus with 6 samples.

Results

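The genes described here are 32 targets and regulators of p53 in mouse 3T3 cells, chosen by symbol as the core of the p53 response and sorted into 5 arms: feedback and regulation, cell cycle arrest, cell death, DNA repair, and metabolism and other roles. All 32 had a row in the deposited counts, among 54532 gene identifiers. A gene was tested when its reads summed to at least 10 over the 6 libraries, which 31 of the 32 did, among 19452 genes tested in all. The remaining gene, Perp, a membrane protein of p53-induced death, had 0 reads in every library and was not tested. Its 0 reads allow a level of at most 3 counts over 6 libraries, or 0.0121 CPM (counts per 1000000 reads).

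The study asked what happens to RNA when the RNA-binding SAFB proteins, which bind transposon-derived and other purine-rich transcripts, are lost together. Polyadenylated RNA was sequenced from 3 control libraries and from 3 libraries of cells in which Safb (named Safb1 in the labels), Safb2 and Sltm were knocked down at the same time, labelled triple KD and called SAFB KD below. The cells were the mouse Flp-In 3T3 fibroblast line, transfected with siRNA, transfected again a day later and harvested on the third day. Both groups were the same line without any deletion given in the sources used here, the siRNAs lowered the targets without removing them, and there was no single knockdown among these libraries, so that the share of each SAFB gene in a change cannot be told apart.

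p53, encoded by Trp53, is a transcription factor that is held low by the ubiquitin ligase Mdm2 and its partner Mdm4, and that accumulates mainly as a protein after DNA damage, ribosomal or replication stress. It switches on genes for cell cycle arrest, such as Cdkn1a, genes for death, such as Bax and Bbc3, genes for repair, and also Mdm2, which closes a negative feedback loop. Fibroblast lines of the 3T3 type are a common setting for studying p53, and p53 activity is usually read from the RNA of its targets rather than from Trp53 RNA. The libraries report RNA levels, not p53 protein, and from bulk RNA, fewer cells carrying a transcript and less of it per cell cannot be told apart.

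The libraries held 33323307 to 53441129 counted reads, and values are given as CPM on library sizes scaled by TMM. All 3 targeted genes fell: Safb from 93.7 ± 3.08 to 46.6 ± 2.01 CPM (SD, n = 3 libraries per group), Safb2 from 46.9 ± 1.79 to 30.01 ± 0.312 and Sltm from 100.2 ± 4.81 to 61.6 ± 0.515. Fibroblast markers were abundant, between 19513 and 21487 CPM in sum in control and 18043 to 18547 in SAFB KD. Of the 10, 8 were called lower in SAFB KD (80%, against 20.1% of all genes, edgeR, adjusted p under 0.05) and 2 were not called. The largest falls were Pdgfra, from 366 ± 2.55 to 142 ± 1.87 CPM, and Pdgfrb, from 118 ± 6.14 to 53.7 ± 1.30 CPM. Both passed a test for a change beyond 2-fold (edgeR glmTreat). Epithelial markers summed to 0.179 to 0.345 CPM in control and 0.302 to 0.455 in SAFB KD, with Epcam, Krt18 and Cldn4 at 0 reads. Leukocyte markers summed to 3.54 to 4.38 and then 6.48 to 8.48 CPM, nearly all of it Cd68, and endothelial markers to 7.89 to 8.39 and then 9.38 to 10.4 CPM, with Kdr at 0. The part of these marker shifts in the results was not tested. Control replicate 3 stood apart from the other 2 control libraries on the second principal component, at -44.2 against 23.1 and 26.5, and results that rest on it are given with and without it.

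p53 binds DNA as a tetramer, at a 20-base response element made of a pair of 10-base repeats. Promoter windows from RefSeq (GRCm38.p6), 250 bases before to 50 bases after each annotated start, were at hand for 24 of the 32 genes, and were not at hand for Pmaip1, Tnfrsf10b, Perp, Trp53inp1, Rrm2b, Ddb2, Xpc and Zmat3. The windows were searched on both strands (the consensus is its own reverse complement) for the p53 response element consensus, with both invariant core C and G pairs required and up to 3 mismatches elsewhere. The matches, shown because p53 acts on its targets through such elements, are printed with matching positions in capitals and mismatches in lower case:
Cdkn1a, chr17:29090928-29090947, + strand: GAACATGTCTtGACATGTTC
Ccng1, chr11:40755462-40755481, - strand: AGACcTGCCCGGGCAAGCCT
Trp53, chr11:69580284-69580303, + strand: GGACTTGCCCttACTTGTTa
Bbc3, chr7:16309486-16309505, + strand: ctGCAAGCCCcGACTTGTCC
Aen, chr7:78895937-78895956, + strand: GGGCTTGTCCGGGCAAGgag
Sesn1, chr10:41887266-41887285, + strand: AAGCTTGTTTttGCTgGCCT
Tigar, chr6:127109746-127109765, - strand: GGtCTAGCTCtGGCAAGaCT

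A match was thus present in 7 of the 24 genes (29.2%), against 1.63% of all 27025 genes with a window and 1.77% of the 11525 that were also tested. The Bbc3 and Sesn1 matches lie before a second annotated start inside the gene. The Cdkn1a and Ccng1 matches carried a single mismatch, a closeness reached in 0.0814% of all genes. The genes were assembled as known p53 targets, a class partly defined by such elements, so the shares describe the set and are no independent result. An exact 10-base repeat, whether or not its partner lay beside it, was sought as well, and 9 of the 24 (37.5%) had one against 9.55% of all genes. That search adds 4 genes to those above, and the repeats of Mdm2 and Bax, the most responsive of them, were:
Mdm2, chr10:117710935-117710944, - strand: GAACTTGCCT
Bax, chr7:45467090-45467099, - strand: AGGCAAGCTT

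Over all genes tested, 21.4% were called higher and 20.1% lower in SAFB KD (edgeR, adjusted p under 0.05). Among the 7 genes with a 20-base match, 4 were called higher, 1 was called lower and 2 were not called, with a median log2 fold change of 0.22. Of the 17 without one in the window, 12 were called higher, 1 lower and 4 not, with a median of 0.27. The 12 include Gdf15, which had 0 reads in control. The window holds only the promoter, and elements in introns or further upstream were not searched.

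**Figure D1:**
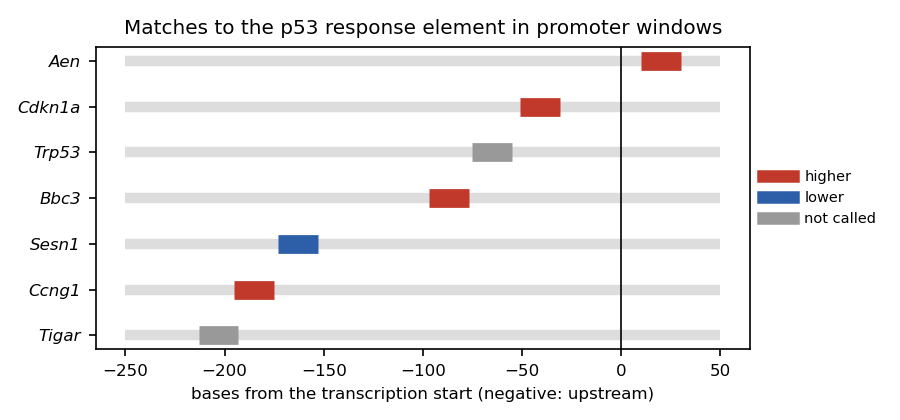
Position of each 20-base match to the p53 response element (coloured block) within the promoter window (grey bar), in bases from the annotated transcription start, for the 7 genes with a match. Blocks are coloured by the call of the gene in SAFB KD: Aen, Cdkn1a, Bbc3 and Ccng1 were higher, Sesn1 was lower, and Trp53 and Tigar were not called. Only the Aen match lies after the start.

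Compared with control, the p53 pathway genes were mostly modestly higher in SAFB KD, with the arrest and death arms leading, while Trp53 itself was close to its control level. At an adjusted p under 0.05 (edgeR quasi-likelihood test, Benjamini-Hochberg over all genes tested), 20 of the 31 tested genes were called higher (64.5%), against 21.4% of all genes tested. Another 3 were called lower (9.7%), against 20.1% of all genes, and 8 were not called, where 41.5% of all genes were called in either direction. The median log2 fold change of the 31 genes was 0.24 and that of all genes 0.01. Every SAFB KD library was above every control library in 20 of the 31 genes (25.3% of all genes) and below in 4 (23.7% of all genes). The genes were chosen with earlier results of these data known, so these shares describe the set.

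The changes were small. Leaving out Gdf15, which has no measurable control level, the 19 genes called higher rose between 1.08-fold and 1.67-fold, with a median of 1.32-fold, and 6 of them exceeded 1.5-fold: Plk2, Plk3, Bax, Mdm2, Eda2r and Bbc3. None of the 31 passed the test for a change beyond 2-fold (edgeR glmTreat), a test passed upward by 0.699% and downward by 0.524% of all genes. At an unadjusted p under 0.05 that test held for 1 of the 31, Gdf15, and for 784 of all 19452 genes. The read depth was ample for most of these genes, which had between 1311 and 123376 reads over the 6 libraries, again leaving out Gdf15.

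**Figure D2:**
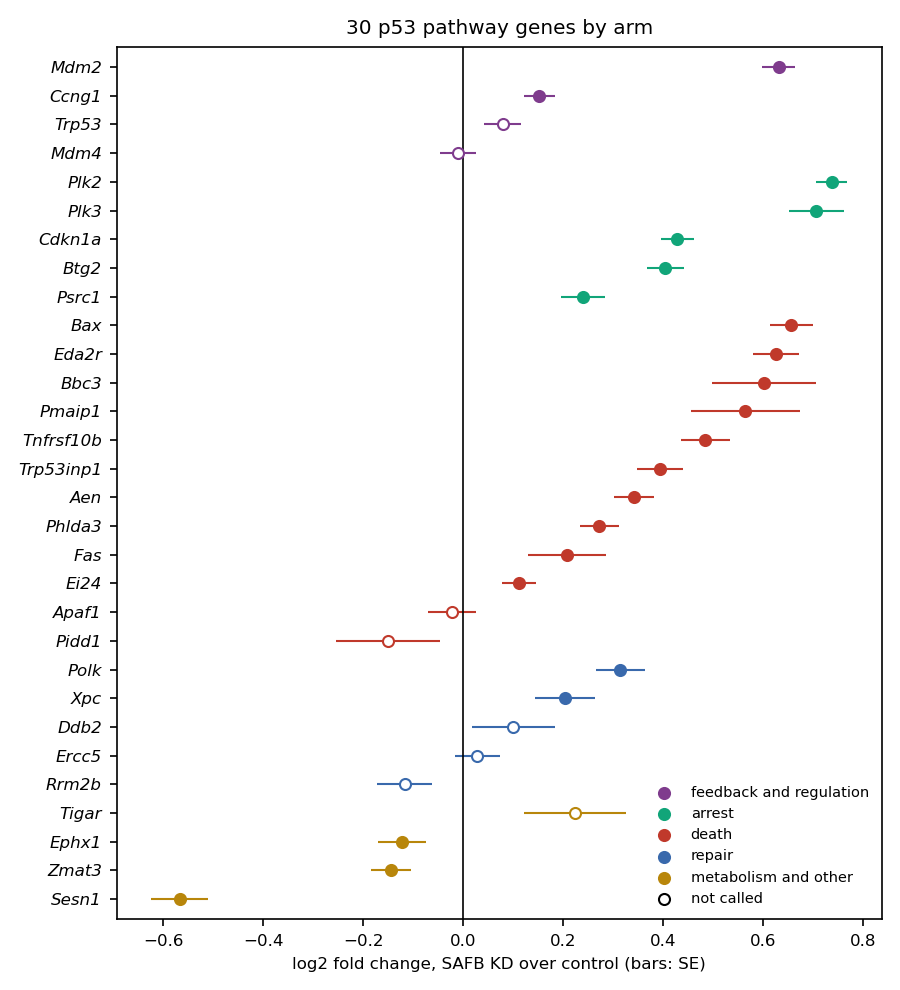
Log2 fold change of SAFB KD over control for 30 p53 pathway genes, grouped by arm (colour), with bars for the standard error of the fit to 3 libraries per group. Filled points were called at an adjusted p under 0.05 and open points were not, and Gdf15 (0 control reads) and Perp (0 reads) are left out. All 5 arrest genes lie right of 0, from 0.24 to 0.74, and Sesn1 lies furthest left at -0.57.

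In the feedback arm, the regulators parted ways: Mdm2 rose, its partner Mdm4 and Trp53 were not called. Mdm2 (chr10:117688875-117710758) was read at 86.4, 85.8 and 87.2 CPM in the control libraries and at 136, 133 and 132 CPM in SAFB KD. Its groups were far apart, with the lowest SAFB KD library 51.6% above the highest control library, and its log2 fold change was 0.63 ± 0.03 (SE, adjusted p = 5.65e-19). Trp53 (chr11:69580359-69591873) was at 92.1, 85.3 and 84.2 CPM in control and 93.4, 93.1 and 90.1 CPM in SAFB KD. The groups overlapped through control replicate 1, and the log2 fold change was 0.08 ± 0.04 (adjusted p = 0.0849). Without that library it was 0.11, with an adjusted p of 0.0115. Without control replicate 2 the log2 fold change of Trp53 was 0.05 (adjusted p = 0.408), and without control replicate 3 it was 0.04 (adjusted p = 0.451).

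Mdm4, the Mdm2 relative that binds and masks the p53 activation domain, measured 118, 122 and 126 CPM in control and 116, 128 and 119 CPM in SAFB KD, fully overlapping, with a log2 fold change of -0.01 ± 0.04 (adjusted p = 0.862). Ccng1, cyclin G1, a p53 target that feeds back on Mdm2, was the most abundant of all 31 genes per length, at 134 reads per kilobase of exon on the CPM scale (RPKM) in control. It stood at 448, 476 and 486 CPM in control and 528, 514 and 526 CPM in SAFB KD. The groups did not overlap and the rise was small, with a log2 fold change of 0.15 ± 0.03 (adjusted p = 6.42e-05).

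Ratios of reads within a library do not depend on how libraries are scaled. Mdm2 reads per Trp53 read were 0.938, 1.01 and 1.04 in control and 1.46, 1.43 and 1.47 in SAFB KD. Mdm2 reads per Mdm4 read went from 0.732, 0.704 and 0.694 to 1.18, 1.05 and 1.11. Reads of Mdm2 were thus fewer than those of Mdm4 in every control library and more in every SAFB KD library, a ratio of raw reads and not of transcript numbers, since Mdm4 has the longer exons. Processed copies of Trp53 and of Mdm4 lie elsewhere in the genome, and the rows of these copies held 5 to 23 reads a library for Trp53-ps and 4 to 20 for Mdm4-ps, so that reads shared with them are few as counted. How the counting handled reads that fit both places could lower the parent gene, and was not tested.

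**Figure D3:**
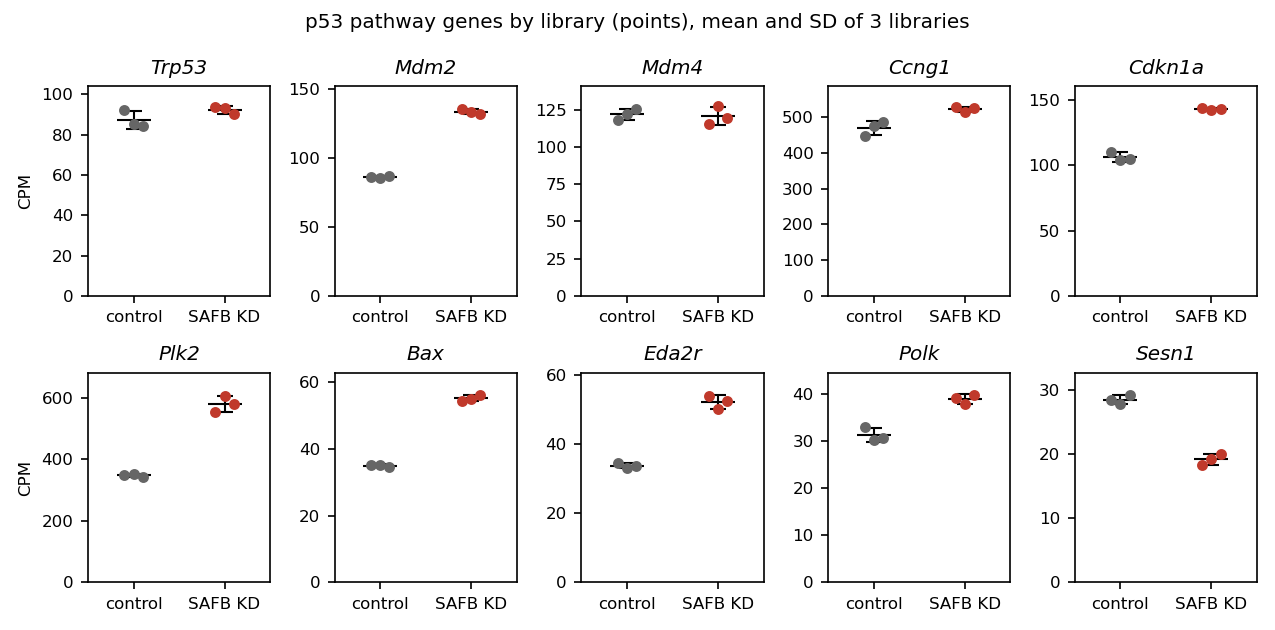
CPM of 10 p53 pathway genes in each of the 3 control libraries (grey) and 3 SAFB KD libraries (red), with the mean as a horizontal bar and the SD as an error bar, and each axis starting at 0. The groups overlap for Trp53 and Mdm4 and are apart for the other 8 genes, with Sesn1 the only one in which SAFB KD is lower.

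In the arrest arm, all 5 genes rose (100%, against 21.4% of all genes), with a median log2 fold change of 0.43. Every SAFB KD library was above every control library in all 5, as in 25.3% of all genes. Cdkn1a (chr17:29090976-29100727), the cyclin-dependent kinase inhibitor p21 that carries out p53-dependent G1 arrest, was at 111, 104 and 105 CPM in control and 144, 142 and 143 CPM in SAFB KD. The 3 SAFB KD libraries were nearly alike and each was at least 28.8% above the highest control library, with a log2 fold change of 0.43 ± 0.03 (adjusted p = 6.63e-14). The annotation places AC167363.2, an unclassified transcript, on the opposite strand of Cdkn1a, which was listed at 0 to 1 reads in the control libraries and 4 to 9 reads in the SAFB KD libraries.

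Plk2, a polo-like kinase induced by p53 at checkpoints, had the largest fold change of the 30 genes with a control level. It was read at 349, 351 and 343 CPM in control and 552, 606 and 580 CPM in SAFB KD, groups 57.3% apart, with a log2 fold change of 0.74 ± 0.03 (adjusted p = 7.15e-22). Its relative Plk3, a stress-responsive kinase, was far less abundant and changed by nearly as much: 21.2, 19.2 and 19.7 CPM became 33.2, 33.2 and 32.0 CPM, a log2 fold change of 0.71 ± 0.06 (adjusted p = 7.65e-14).

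Btg2, an antiproliferative p53 target, rose from 62.2 ± 1.88 to 82.3 ± 0.685 CPM, a log2 fold change of 0.40 (adjusted p = 5.73e-12). Psrc1, a microtubule-binding spindle protein, rose the least of this arm, from 39.8 ± 0.578 to 46.9 ± 0.680 CPM, a log2 fold change of 0.24 (adjusted p = 1.77e-05). Per length, Plk2 led this arm at 77.4 RPKM in control and 129 in SAFB KD, followed by Cdkn1a at 29.9 and 40.3 RPKM.

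In the death arm, 10 of the 12 tested genes rose (83.3%, against 21.4% of all genes) and none fell (against 20.1%). The other 2 were not called, and the median log2 fold change was 0.37. The pore-forming and BH3 proteins of the mitochondrial route rose together. Bax (chr7:45461697-45466898), the effector that permeabilizes the outer mitochondrial membrane, was at 35.1, 35.3 and 34.4 CPM in control and 54.3, 54.9 and 56.1 CPM in SAFB KD. Spread within each group was under 1 CPM (SD) against a gap of 53.7%, and its log2 fold change was 0.66 ± 0.04 (adjusted p = 6.85e-16).

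Bbc3, which encodes Puma, and Pmaip1, which encodes Noxa, are BH3-only proteins that free Bax from its inhibitors. Bbc3 was at 4.38, 4.68 and 4.02 CPM in control and 6.20, 6.87 and 6.79 CPM in SAFB KD, with a log2 fold change of 0.60 ± 0.10 (adjusted p = 7.42e-06). Pmaip1 was at 4.59, 4.43 and 6.10 CPM in control and 7.70, 6.73 and 7.72 CPM in SAFB KD, with a log2 fold change of 0.56 ± 0.11 (adjusted p = 3.77e-05). Control replicate 3 was the high control library for Pmaip1, and without it the log2 fold change was 0.70. Both genes were low, at 2.05 and 1.84 RPKM in control, and their standard errors were more than double that of Bax.

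The death receptors rose to different degrees. Eda2r, a receptor of the TNF family for ectodysplasin A2, was at 34.7, 33.1 and 33.8 CPM in control and 54.1, 50.2 and 52.5 CPM in SAFB KD, without overlap, a log2 fold change of 0.63 ± 0.05 (adjusted p = 9.78e-15). Tnfrsf10b, the mouse receptor for the death ligand TRAIL, rose from 32.6 ± 1.89 to 45.6 ± 1.75 CPM, a log2 fold change of 0.48 (adjusted p = 8.73e-11). Fas, the receptor for Fas ligand, was the weakest call among these receptors: 10.5, 11.2 and 10.3 CPM in control overlapped with 11.03, 12.3 and 13.4 CPM in SAFB KD, and the log2 fold change was 0.21 (adjusted p = 0.0304). The Fas call was lost when control replicate 1 or 3 or SAFB KD replicate 2 or 3 was left out, with adjusted p from 0.0661 to 0.276, and in DESeq2, with an adjusted p of 0.0922.

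Among the other death genes, the exonuclease gene Aen rose from 53.6 ± 1.51 to 67.7 ± 2.25 CPM (log2 fold change 0.34), and Trp53inp1, a nuclear cofactor of p53, from 39.0 ± 2.62 to 51.2 ± 1.03 CPM (0.39). Phlda3, a PH-domain repressor of Akt, rose from 61.9 ± 2.32 to 74.6 ± 2.01 CPM (0.27), and Ei24, an endoplasmic reticulum protein, from 80.9 ± 0.813 to 87.4 ± 1.47 CPM (0.11, adjusted p = 0.00810). Without control replicate 2, the Ei24 call was lost (adjusted p = 0.0633). The 2 genes that were not called both act as scaffolds for caspases. Apaf1, the core of the apoptosome, was at 38.4 ± 0.894 CPM in control and 37.8 ± 1.38 CPM in SAFB KD (log2 fold change -0.02, adjusted p = 0.758). Pidd1, of the PIDDosome, was at 5.76, 5.24 and 5.72 CPM in control and 5.002, 5.01 and 5.03 CPM in SAFB KD, lower in every SAFB KD library and with an adjusted p of 0.266.

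The repair arm was mixed: 2 of its 5 genes rose (40%, against 21.4% of all genes) and 3 were not called, with a median log2 fold change of 0.10. Polk, a translesion DNA polymerase, was at 33.1, 30.4 and 30.6 CPM in control and 39.2, 37.9 and 40.0 CPM in SAFB KD, without overlap, and its log2 fold change was 0.31 ± 0.05 (adjusted p = 1.30e-06). Xpc, the damage sensor of global nucleotide excision repair, rose from 18.9 ± 1.03 to 21.7 ± 0.317 CPM (0.20, adjusted p = 0.00513), a call lost without control replicate 1 (adjusted p = 0.0550). Its partner in damage recognition, Ddb2, was at 9.07 ± 0.698 and 9.70 ± 0.186 CPM (0.10, adjusted p = 0.370), and the endonuclease gene Ercc5 at 46.7 ± 1.75 and 47.5 ± 2.71 CPM (0.03, adjusted p = 0.677).

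Rrm2b, the p53-inducible small subunit of ribonucleotide reductase, was at 26.1, 25.9 and 27.1 CPM in control and 24.8, 23.2 and 24.8 CPM in SAFB KD. Each SAFB KD library was below each control library, and the log2 fold change of -0.12 ± 0.05 did not pass (adjusted p = 0.0852). With edgeR's filterByExpr as the filter on low counts, which tests fewer genes, it did (adjusted p = 0.0444). The Rrm2b gene (chr15:37923952-37961318) contains, on its own strand and outside its annotated exons, the processed pseudogene Gm3362 (chr15:37943327-37943792). Gm3362 was read at 0.991, 0.960 and 0.863 CPM in control and 2.76, 2.95 and 2.82 CPM in SAFB KD, 3.01-fold higher (log2 fold change 1.59 ± 0.18, adjusted p = 1.79e-09). The host and the intronic pseudogene thus differed in direction, and whether the pseudogene reads came from its own transcript or from the Rrm2b intron was not tested.

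The arm of metabolism and other roles held all 3 genes that fell, among its 5 genes (60%, against 20.1% of all genes). Of the rest, 1 was called higher (20%, against 21.4%), Gdf15, and 1 was not called. Sesn1 (chr10:41809935-41908424), a sestrin that restrains mTORC1 and limits oxidative stress, was at 28.5, 27.9 and 29.3 CPM in control and 18.3, 19.3 and 20.04 CPM in SAFB KD. Each SAFB KD library was at least 28.2% under the lowest control library, and the log2 fold change was -0.57 ± 0.06 (adjusted p = 5.28e-11), the only fall of more than 10% among the called genes. Zmat3, a zinc finger RNA-binding protein and p53 target, measured 99.7, 92.2 and 88.0 CPM in control and 87.4, 86.3 and 80.3 CPM in SAFB KD, groups that all but touched (log2 fold change -0.14, adjusted p = 0.00307). Ephx1, microsomal epoxide hydrolase, was at 44.2, 45.4 and 40.4 CPM and 39.2, 38.5 and 41.6 CPM, with overlap (-0.12, adjusted p = 0.0387). The Zmat3 call was lost without SAFB KD replicate 3 (adjusted p = 0.0577), and the Ephx1 call without control replicate 1 or 2 or SAFB KD replicate 1 or 2 (adjusted p from 0.0737 to 0.181).

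Tigar, which lowers glycolytic flux through fructose-2,6-bisphosphate, was at 5.30, 5.88 and 6.10 CPM in control and 6.59, 7.45 and 6.12 CPM in SAFB KD, above control by the narrowest of margins and not called (log2 fold change 0.22, adjusted p = 0.0775). Without SAFB KD replicate 3, it passed (0.29, adjusted p = 0.0412). Gdf15, a secreted stress cytokine of the TGF-beta family, had 0 reads in each control library and 2, 4 and 13 reads in the SAFB KD libraries. Over each group it was at least 5.54-fold higher in SAFB KD, setting 19 reads against a floor of 3 counts over the control group, and its adjusted p was 0.00306. It remained under 0.25 CPM in every library, and 13 of its 19 reads came from SAFB KD replicate 3, without which it fell under 10 reads and was not tested.

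Sesn1 moved against its paralogue. Sesn2, the sestrin that answers to both p53 and the integrated stress response, was at 21.6, 18.9 and 17.9 CPM in control and 29.8, 31.0 and 30.6 CPM in SAFB KD (log2 fold change 0.64 ± 0.06, adjusted p = 8.95e-12). Sesn1 reads per Sesn2 read were 1.32, 1.47 and 1.64 in control and 0.614, 0.622 and 0.654 in SAFB KD. Sesn1 was the more read of the pair in every control library and Sesn2 in every SAFB KD library.

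A list of 32 further p53 targets from the general knowledge of the pathway held more genes called higher than lower. As it was chosen with earlier results of these data known, its shares describe the list and are no independent support. Of its 28 tested genes, 16 rose (57.1%, against 21.4% of all genes), 3 fell (10.7%, against 20.1%) and 9 were not called, with a median log2 fold change of 0.19, and 3 passed the test beyond 2-fold. Gadd45a, a growth arrest and DNA damage protein that p53-independent stress also induces, led: 12.5, 10.8 and 10.2 CPM in control and 29.8, 36.2 and 32.6 CPM in SAFB KD, a log2 fold change of 1.55 ± 0.07 (adjusted p = 6.40e-21). Thbs1, thrombospondin 1, rose from 1374 ± 66.1 to 2986 ± 84.5 CPM (log2 fold change 1.12), and Ddit4, an inhibitor of mTORC1, from 65.5 ± 1.13 to 133 ± 1.53 CPM (1.02). These 3 genes respond to several signals besides p53, and each changed more than any of the core genes with a control level.

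Cd80, a costimulatory ligand, rose from 10.9 ± 1.39 to 19.9 ± 0.326 CPM (0.88), and Fdxr, the mitochondrial ferredoxin reductase, from 20.05 ± 1.04 to 27.9 ± 1.03 CPM (0.48). Trp53cor1, the long noncoding RNA known as lincRNA-p21, which lies beside Cdkn1a, was at 1.36, 1.60 and 1.49 CPM in control and 2.16, 2.51 and 1.62 CPM in SAFB KD (0.49, adjusted p = 0.0394). Its call was lost in 7 of the 13 alternatives, 5 of them the omission of 1 library, with adjusted p from 0.0543 to 0.254. Of the 32, Trp53i11 and Ptp4a3 had 0 reads, Igfbp3 had 2, and Tnfrsf10a had no row.

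The 22 genes upstream of or acting on p53 were called about as often as genes at large: of 20 tested, 4 rose (20%, against 21.4% of all genes), 5 fell (25%, against 20.1%) and 11 were not called, with a median log2 fold change of 0.04. The genes that fell included the acetyltransferase genes Ep300 (125 ± 4.25 to 100.4 ± 2.14 CPM, log2 fold change -0.32) and Crebbp (60.4 ± 6.98 to 47.4 ± 3.03 CPM, -0.36). Another acetyltransferase gene of the list, Kat5, was not called (48.9 ± 0.298 and 51.5 ± 0.738 CPM, 0.07). Prkdc, the DNA-dependent protein kinase, fell by 0.26 on the log2 scale, Trp53bp2, an ASPP protein that steers p53 to death genes, by 0.20, and Trp53bp1, a repair scaffold, by 0.09. The Trp53bp1 call was lost without control replicate 1 or SAFB KD replicate 1 or 3, and with no filter on low counts (adjusted p from 0.0515 to 0.137).

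Those that rose included Ppp1r13l, the inhibitory ASPP protein (8.53 ± 1.06 to 12.4 ± 0.385 CPM, 0.54), Hipk2, a p53 kinase (0.23), and Trp63, a p53 family member (0.37). The damage kinases Atm and Atr and the p53 phosphatase gene Ppm1d, itself a p53 target, were not called, the last at 21.4 ± 0.409 and 23.4 ± 0.741 CPM (0.13, adjusted p = 0.0566). Without SAFB KD replicate 1 Ppm1d passed, with an adjusted p of 0.0451, as it did in limma-voom with 0.0493. Cdkn2a, whose Arf product blocks Mdm2, had 0 reads in all 6 libraries, and Trp73, the remaining family member, had 3 reads in all. For Cdkn2a this allows at most 0.0121 CPM.

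p21 represses many cell cycle genes through the DREAM complex, and these genes often fall when p53 is active. Here 10 of the 24 such genes rose, 4 fell and 10 were not called, with a median log2 fold change of 0.06. Higher calls made up 41.7% of this list, against 21.4% of all genes, and lower calls 16.7%, against 20.1%. With 1 library left out, 7 to 10 genes were called higher and 4 to 5 lower. The count called higher was 7 without control replicate 3 and 7 without SAFB KD replicate 3. The largest changes were falls: Mki67, the proliferation antigen, was at 597, 607 and 586 CPM in control and 400, 383 and 380 CPM in SAFB KD (-0.62 ± 0.03, adjusted p = 2.63e-20), and Cenpf, a kinetochore protein, went from 186 ± 7.45 to 135 ± 1.43 CPM (-0.46). Foxm1, the transcription factor of late cell cycle genes, fell by 0.28 and Top2a, topoisomerase II alpha, by 0.12 on the log2 scale. The rises were no larger than 0.25, for the mitotic kinase Aurka, and 0.20 for Cdk1, and the cyclins Ccnb1, Ccnb2 and Ccna2 were not called. Mki67 reads per Top2a read fell from 0.380, 0.382 and 0.373 to 0.272, 0.268 and 0.261, so genes of the same program did not change in step.

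**Figure D4:**
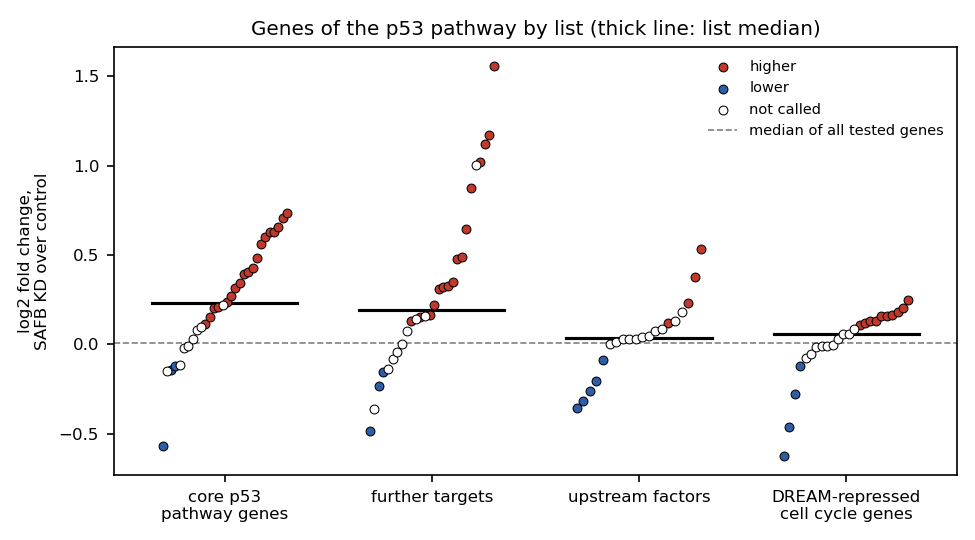
Log2 fold change of SAFB KD over control for the tested genes of the core p53 pathway (30 genes, without Gdf15), the further targets (28), the upstream factors (20) and the DREAM-repressed genes (24), ordered by value within each list. Red points were called higher, blue lower and white not called, the thick line is the median of each list and the dashed line the median of all tested genes (0.01). The core and further targets lie mostly above the dashed line, whereas the other lists spread around it.

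The core genes differed among themselves in their genomic extent. The Spearman correlation of gene span with log2 fold change across the 30 genes without Gdf15 was -0.53, and across all 13506 tested protein-coding genes it was -0.14, both descriptions across genes that share the same 6 libraries. Of the 16 core genes with a span under 20 kb, 14 rose, none fell and 2 were not called, with a median log2 fold change of 0.40. Of the 14 with a span of 20 kb or more, 5 rose, 3 fell and 6 were not called, with a median of 0.06. Among all tested protein-coding genes the same division gave 31.0% higher and 18.6% lower below 20 kb, and 24.9% higher and 31.5% lower at 20 kb or more.

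Sesn1, with 98.5 kb the longest of the 32, showed the largest fall, and Apaf1 (93.5 kb) and Mdm4 (71.1 kb) were not called. Eda2r (43.4 kb) and Polk (61.9 kb) were long genes that rose, and Pidd1 (5.9 kb) and Trp53 (11.5 kb) were the short genes that were not called. Span moved together with arm, since all 5 arrest genes span under 10 kb, so that the order by span and the order by role cannot be told apart in these 30 genes.

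**Figure D5:**
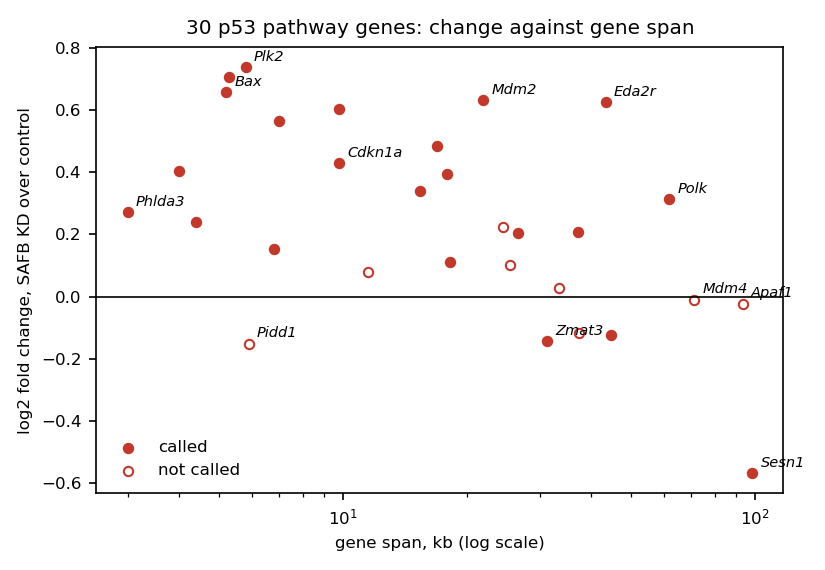
Log2 fold change of SAFB KD over control against gene span in kb (log scale) for 30 p53 pathway genes, filled where called and open where not. Genes under 20 kb lie mostly above 0, with Pidd1 the exception, while longer genes range from Mdm2 and Eda2r at 0.63 to Sesn1 at -0.57.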

How the data were processed

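Strand-specific libraries of polyadenylated RNA were made from 3T3 cells. The authors mapped reads to GRCm38 with STAR 2.7.9a in a 2-pass run on GENCODE models and deposited raw read counts per gene, 1 file per library. The p53 pathway genes and every other list were chosen with earlier results of these data known. Identifiers were named from GENCODE vM21 (54495 of 54532 matched), which also gave spans and the exonic length for RPKM. Genes with at least 10 reads summed over 6 libraries were tested, all 6 libraries together, with edgeR 4.0.16 (R 4.3.3; TMM, quasi-likelihood F test, Benjamini-Hochberg over 19452 genes, called at adjusted p under 0.05; glmTreat at a log2 threshold of 1 for 2-fold). Standard errors were derived from the fold change and its F statistic. The alternatives were 2 other normalizations, 2 other filters, DESeq2 1.42.0, limma-voom 3.58.1, a replicate block and the omission of each library. Named genes were all 32 p53 pathway genes, the knockdown targets, up to 8 genes of smallest adjusted p in each further list, and Cdkn2a, Ppm1d, Gadd45a, Sesn2 and Trp53cor1. Other genes of a list named for being at 0, not called or in the same protein family were chosen after their values were seen, as were the genes lying within or copied from these 32. The fits were tested on simulated data. The replicates, called biological in the series text, differed by more than sampling error (chi-square over its degrees of freedom from 3.92 to 19.6), and floors and limits of a count of 0 cover counting error only. The strand of counting was inferred: the study used reverse-stranded counts for testing, and the files hold a single count column. Some named genes of the further lists are not reported here.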

Additional observations from a re-analysis of the deposited data

How the results depend on the processing

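Across 13 alternatives, between 18 (DESeq2) and 20 of the core genes were called higher and 2 to 4 lower, the median log2 fold change stayed between 0.22 and 0.27, and no named gene past the threshold reversed. Of the called core genes, 18 kept their call in every alternative that could be fitted to them, and 8 of the 31 changed call at least once: Fas, Ei24, Xpc, Ephx1 and Zmat3 lost it and Trp53, Tigar and Rrm2b gained it, as given with each gene. DESeq2 also gave no adjusted p for Gdf15, and filterByExpr dropped it. Further targets called lower numbered 3, and 1 to 3 with 1 library left out. The lowest count came without SAFB KD replicate 3, and the cause was not tested. Those called higher numbered 16, and 13 to 15 with 1 library left out. The replicate numbers shared by the groups did not pair the libraries (correlations of same-numbered deviations 0.0453, 0.00617 and 0.00180). With a replicate block, 20 core genes were higher, 3 lower, and 8117 genes were called in place of 8064. Without the filter on 10 reads, 7872 genes were called. Genes with few reads, such as Gdf15, are limited by depth, and the counts say nothing of p53 protein.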
